A study of Mus musculus with 4 samples.

Results

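Erythroid surface antigens and channels are described here as a set of 9 genes, Rhag, Rhd, Kel, Ermap, Icam4, Aqp1, Cldn13, Tspo2 and Slc43a1. They were taken by symbol, as the probe sets annotated with exactly 1 of these names. The rule uses no measured value, though the names were proposed with earlier results of these data known. Each gene had a single probe set, so they make up 9 of 35556 probe sets and 9 of the 19938 genes that had a probe set of their own. The arrays came from RNA-binding protein immunoprecipitation (RIP), in which an antibody pulls a protein out of a cell lysate and the RNA that comes with it is measured. The cells were early erythroid progenitors of C57BL/6 mouse fetal liver at embryonic day 14.5, and both groups used the same cells, with no genetic change or drug named in the labels. They had been freed of lineage-positive, Sca-1+, CD16/32+, CD41+ and CD34+ cells and then sorted for c-Kit and for the lowest 10% of CD71. The RBP group consisted of 2 arrays, whose RNA was precipitated by an antibody specific for an RBP (RNA-binding protein), and the IgG group of 2 arrays, whose RNA was precipitated by control rabbit IgG. The labels do not name the protein. Published work on these cells makes it likely that it is ZFP36L2, a zinc finger protein that binds AU-rich elements, but this was not checked here.

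The proteins of these genes sit in the membranes of red cells and their precursors, and several carry human blood groups. Rhag and Rhd form the core of the Rh complex, in which Rhag is a channel for ammonia and is needed for the complex to reach the surface. Kel is a zinc endopeptidase linked to the membrane protein Xk. Ermap is a butyrophilin-like protein that carries the Scianna antigens in human, and Icam4, the Landsteiner-Wiener antigen in human, is an adhesion molecule that binds integrins. Aqp1 is the water channel of the red cell, Cldn13 a claudin found on mouse erythroid cells, Tspo2 an erythroid cholesterol-binding protein related to the mitochondrial translocator protein, and Slc43a1 a transporter of large neutral amino acids (LAT3). Several of these genes are activated by the transcription factors GATA1 and KLF1 as erythroblasts mature.

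For 8 of the 9 genes the RefSeq table of assembly GRCm38.p6 held the 250 bases before the annotated start, and Cldn13 had no entry there. The letters AGATAA or TGATAA, a form of the GATA factor motif, were searched on both strands and lay in 5 of these 8 windows, against 16.6% of all 32851 windows of the table. The letters CACCC, a core of the Kruppel-like factor motif, lay in 8 of 8, against 52% of all windows. These matches describe the genomic letters and are neither binding sites nor part of the RIP measurement. The 30 bases around each GATA match are shown because GATA1 is the factor best known for driving these genes. Capitals mark the match or, where it lies on the other strand, its reverse complement, and each line runs 5′ to 3′ on the strand of the gene.
Rhag, chr17:40811106-40811135, plus strand, 31 bases before the start: agtcctctgctcTTATCAacactatacagc
Rhd, chr4:134864481-134864510, plus strand, 43 bases before the start: cccggcagcctgAGATAAgacctttggcgg
Kel, chr6:41704364-41704393, minus strand, 56 bases before the start: cctgagaaactaAGATAAaagaggaggtga
Kel, chr6:41704327-41704356, minus strand, 19 bases before the start: gtgttccctcacTGATAAgcaggctccacc
Ermap, chr4:119190045-119190074, minus strand, 67 bases before the start: tgaacgctcgctTTATCAggggtgggcaga
Icam4, chr9:21029377-21029406, plus strand, 43 bases before the start: cagggtgccttcTTATCTcctgcggccagc

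Values are log2 levels per probe set as the authors deposited them, and a difference is the mean of the RBP arrays minus the mean of the IgG arrays. The median over all probe sets was 5.57 and 5.62 on the RBP arrays and 5.85 and 5.93 on the IgG arrays, and the interquartile range was 3.61 to 3.73 on the RBP arrays and 2.87 to 2.91 on the IgG arrays. All 9 genes had a mean level above 5.36, the 95th percentile of 1240 chemosensory receptor genes, taken here as the background level. Transcripts that mark early erythroid cells were well above it, such as the stem cell factor receptor Kit (11.63 and 11.89 on the RBP arrays, 10.88 and 11.25 on the IgG arrays). Alas2, the heme enzyme of maturing erythroblasts, was near it (5.51 and 5.03 on the RBP arrays, 5.32 and 5.22 on the IgG arrays). The labels do not say whether replicate arrays stem from different sorts of cells, so p-values reflect the spread of these 4 arrays alone and that spread may be technical. Only 4 arrays were used, which limits the precision, and an exact two-sided permutation test of 2 against 2 cannot give a p below 0.333.

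The comparison asked how the level of each transcript differed between the RNA precipitated by the RBP antibody and by control IgG. No array of input RNA was among the 4, so the differences are of array levels and not of amounts brought down. Of the 9 genes, 4 were higher in the RBP immunoprecipitates, namely Cldn13 (2.45-fold), Aqp1 (2.22-fold), Rhd (2.20-fold) and Slc43a1 (1.73-fold). None was called lower in limma (0 genes, and 0 also at an unadjusted p under 0.05), and 5 did not pass. Both RBP arrays lay above both IgG arrays for 7 of the 9, Kel ran the other way with both RBP arrays below both IgG arrays, and Icam4 overlapped. Over 19938 genes, limma's moderated test called 23.8% higher and 6.54% lower at a Benjamini-Hochberg adjusted p under 0.05. Without overlap, 37.4% of all genes had both RBP arrays above both IgG arrays and 36.2% had both below. Among the 12828 genes above the background level, 36.5% were called higher and 6.54% lower, and without overlap 54.9% had both RBP arrays above and 22.8% both below. The median difference was 0.79 over the 9 genes, -0.02 over all genes and 0.40 over the genes above background. The 4 calls were mostly lost without an RBP array, where the spread comes from the IgG pair alone. Without RBP array 1 and without RBP array 2 the differences were 1.08 and 1.19 for Rhd, and 1.14 and 1.16 for Aqp1. They were 1.41 and 1.18 for Cldn13, and 0.83 and 0.75 for Slc43a1. A call lost there thus need not mean a smaller difference. The calls also depended on the scaling. Centring the arrays on the chemosensory genes gave 7 genes higher and quantile normalization gave 0. Over all genes these scalings called 7074 higher and 317 lower, and 2207 higher and 553 lower, against 4741 and 1304 on the values as deposited.

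**Figure D1:**
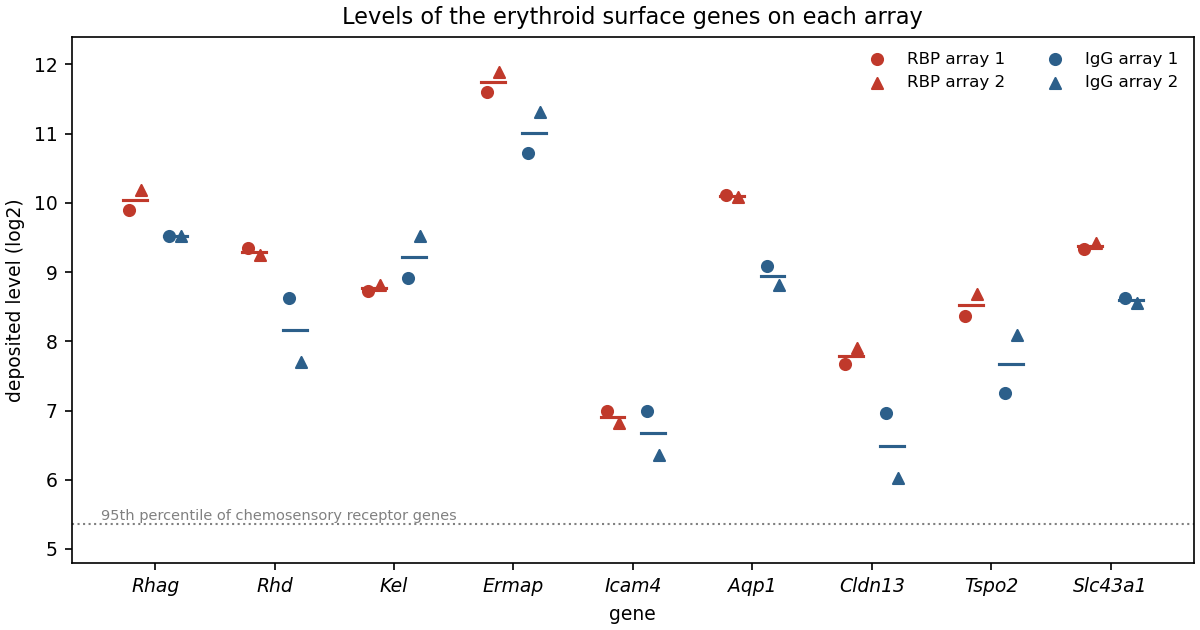
Deposited log2 level (vertical axis) of each of the 9 genes on the 2 RBP arrays (red) and the 2 IgG arrays (blue), with circles for array 1, triangles for array 2 and a bar for the group mean. The RBP points lie above the IgG points for 7 genes, and below them for Kel. For Icam4 both RBP points lie between the IgG points, RBP array 1 level with IgG array 1, and the dotted line marks the background level of 5.36.

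Of the Rh pair, Rhd was called higher and Rhag did not pass. Rhag (probe set 10445192) had a level of 9.90 and 10.18 on the RBP arrays, against 9.52 and 9.52 on the IgG arrays. Both RBP values were above both IgG values, and the IgG arrays were equal to 2 decimals. The difference of 0.53 ± 0.16 (SE, n = 2 each) just missed the threshold (limma, adjusted p = 0.0567, 95% confidence interval 0.13 to 0.92). Rhd (probe set 10509002), the mouse Rh polypeptide, had 9.35 and 9.24 on the RBP arrays, against 8.62 and 7.70 on the IgG arrays. The RBP arrays agreed closely, and IgG array 2 was the low one. Rhd rose by 1.14 ± 0.31 (limma, adjusted p = 0.0400). The size followed the IgG array used, at 0.68 without IgG array 2 and 1.60 without IgG array 1. Here and below, a test without an IgG array takes its spread from the RBP pair alone, which was the tighter pair (SD over genes of the difference between arrays 0.258, against 0.401 for the IgG pair), and assumes the lone IgG array to vary like it. A test without an RBP array takes its spread from the looser IgG pair alone. The call of Rhd was lost without RBP array 1 (limma, adjusted p = 0.143), without RBP array 2 (adjusted p = 0.104) and with quantile normalization (adjusted p = 0.266). Whether the differences of Rhag and Rhd differ from each other was not tested.

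Kel was the one gene of the 9 with a negative difference. Its level (probe set 10544383) was 8.72 and 8.82 on the RBP arrays, against 8.92 and 9.52 on the IgG arrays. The groups did not overlap, but IgG array 1 lay close to the RBP arrays. The difference of -0.45 ± 0.23 did not pass (limma, adjusted p = 0.181, 95% confidence interval -1.02 to 0.11). The difference was below 0 in all 14 alternatives that gave one, from -1.13 to -0.14. Kel was called lower in 3 of them, at -0.97 with quantile normalization (limma, adjusted p = 0.0446), at -1.13 with the trend on level removed (adjusted p = 0.0374) and at -0.75 without IgG array 1 (adjusted p = 0.0206). Without IgG array 2 the difference was -0.15 (limma, adjusted p = 0.425).

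The immunoglobulin-like pair gave no call. Ermap (probe set 10515848) had 11.60 and 11.89 on the RBP arrays, against 10.72 and 11.31 on the IgG arrays. All RBP values were above all IgG values, with IgG array 1 the lowest of the 4. The difference was 0.73 ± 0.24 (limma, adjusted p = 0.0656, 95% confidence interval 0.14 to 1.32), and it was 0.44 without IgG array 1 and 1.02 without IgG array 2, where it passed (limma, adjusted p = 0.0171). Icam4 (probe set 10583529) had 6.99 and 6.82 on the RBP arrays, against 6.99 and 6.36 on the IgG arrays. RBP array 1 and IgG array 1 were level, so the groups overlapped. The difference of 0.23 ± 0.24 did not pass (limma, adjusted p = 0.475, 95% confidence interval -0.36 to 0.82). It was -0.09 without IgG array 2, and 0.55 without IgG array 1, where it passed narrowly (limma, adjusted p = 0.0499).

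The water channel and the amino acid transporter rose with little spread between arrays. Aqp1 (probe set 10538459) had 10.11 and 10.09 on the RBP arrays, against 9.09 and 8.82 on the IgG arrays. The RBP arrays were nearly equal and stood about a whole log2 unit above the higher IgG array. Aqp1 rose by 1.15 ± 0.16 (limma, adjusted p = 0.00690, 95% confidence interval 0.75 to 1.55). It was called in 10 of 14 alternatives and narrowly missed without RBP array 1 (limma, adjusted p = 0.0510) and with quantile normalization (0.68, adjusted p = 0.0511). Slc43a1 (probe set 10473367) had 9.34 and 9.42 on the RBP arrays, against 8.63 and 8.55 on the IgG arrays. Both groups were tight and well apart, and Slc43a1 rose by 0.79 ± 0.14 (limma, adjusted p = 0.0129). Leaving out an array kept its difference between 0.75 and 0.83. The call was lost without RBP array 1 (limma, adjusted p = 0.0955) or RBP array 2 (adjusted p = 0.115), and quantile normalization brought the difference to 0.25 (adjusted p = 0.321).

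Cldn13 had the largest difference of the 9 genes and also the largest standard error. Its level (probe set 10534389) was 7.67 and 7.91 on the RBP arrays, against 6.97 and 6.02 on the IgG arrays. Both RBP values were above both IgG values, with IgG array 2 the low one, as for Rhd. Cldn13 rose by 1.29 ± 0.32 (limma, adjusted p = 0.0305), by 0.82 without IgG array 2 and by 1.77 without IgG array 1. Its call was lost without RBP array 1 (limma, adjusted p = 0.0760), without RBP array 2 (adjusted p = 0.111) and with quantile normalization (1.14, adjusted p = 0.122). Tspo2 (probe set 10451670) had 8.37 and 8.69 on the RBP arrays, against 7.25 and 8.09 on the IgG arrays. The groups did not overlap, and here IgG array 1 was the low one. The difference of 0.86 ± 0.30 did not pass (limma, adjusted p = 0.0791, 95% confidence interval 0.12 to 1.61), and it was 0.44 without IgG array 1 and 1.29 without IgG array 2, where it passed (adjusted p = 0.0121).

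**Figure D2:**
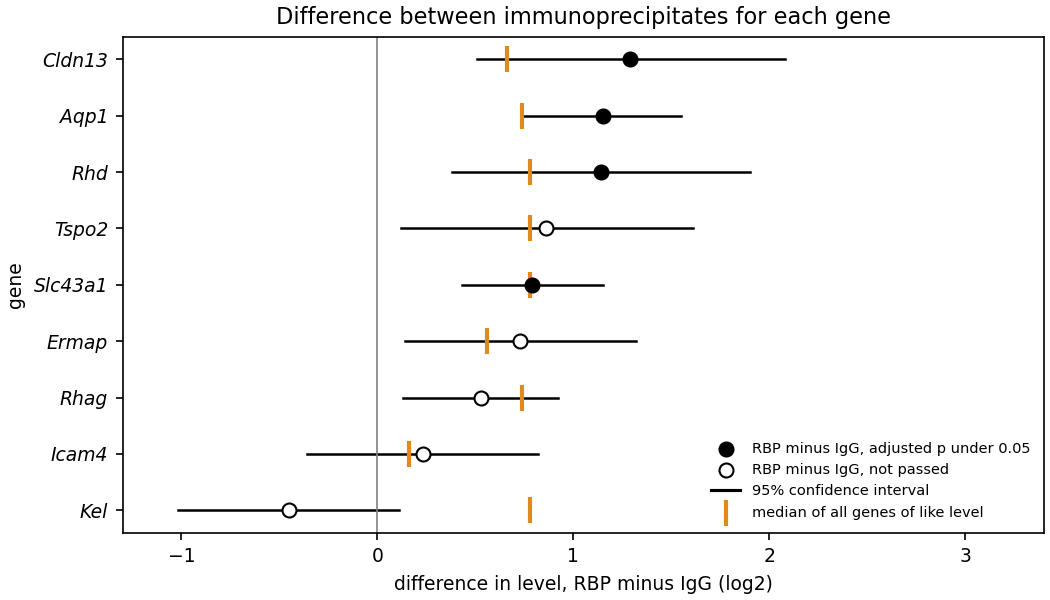
Difference in level (horizontal axis, RBP minus IgG, log2) of each gene with its 95% confidence interval from limma, filled where the adjusted p was under 0.05, and an orange mark for the median of all genes in the same range of mean level. Kel lies at -0.45, while the genes of its level range have a median of 0.78, and the other 8 genes lie between 0.23 and 1.29.

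The difference over all genes went with the level of the gene, so each of the 9 was set beside the genes in its own range of mean level. The 44.4% of the surface genes called higher lay above the 36.5% of all genes over background and below the 56.4% of genes at levels of 8 to 9. Rhd, Kel, Tspo2 and Slc43a1 fell among 2329 genes with mean levels of 8 to 9, which had a median difference of 0.78. Slc43a1 (0.79) and Tspo2 (0.86) were at about that median and Rhd (1.14) above 73.5% of these genes. Kel lay above 4.72% of them. Rhag and Aqp1 fell among 1650 genes with levels of 9 to 10 and a median of 0.74, where Rhag exceeded 34.5% of genes and Aqp1 78.5%. Cldn13 exceeded 85.9% of the genes at levels of 7 to 8 (median 0.66), Ermap 62.4% of those above 10 (median 0.56) and Icam4 53.6% of those at 6 to 7 (median 0.16). With the trend on level subtracted from all genes, 0 of the 9 were called higher and 1 lower (Kel) by limma, against 5.94% and 5.11% of all genes. In that setting Cldn13 differed by 0.81 (limma, adjusted p = 0.161), Aqp1 by 0.53 (adjusted p = 0.0919) and Rhd by 0.45 (adjusted p = 0.398). Slc43a1 was then at 0.11 and Rhag at -0.06.

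**Figure D3:**
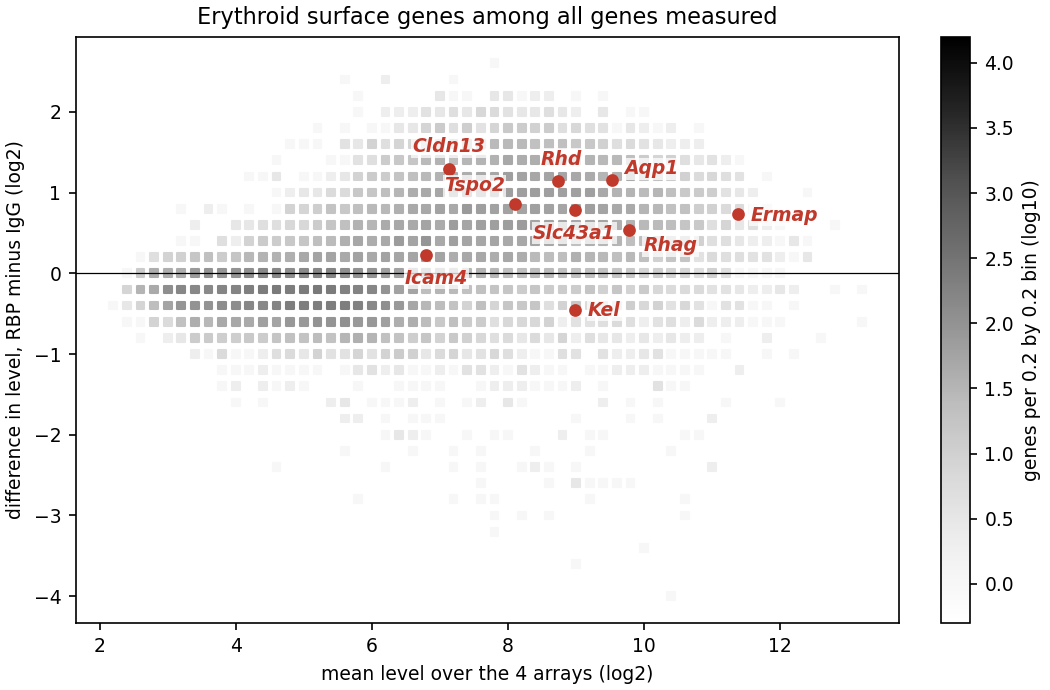
Mean level over the 4 arrays (horizontal axis, log2) and difference in level (vertical axis, RBP minus IgG, log2) of all genes, shaded by the number of genes in each bin on a log10 scale, with the 9 genes in red. The bulk of the genes lies higher at levels of 7 to 10 than at levels under 6, and Kel (-0.45) is the one surface gene below 0.

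**Figure D4:**
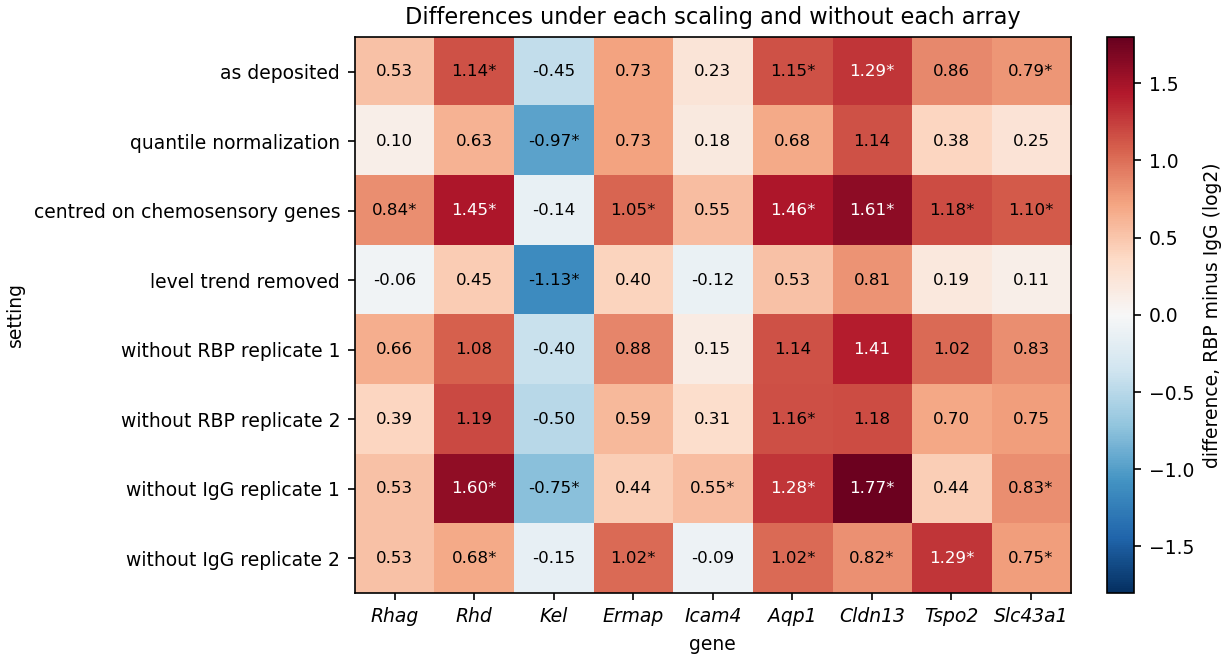
Difference in level (RBP minus IgG, log2) of each gene (columns) as deposited, under 3 other scalings and without each array (rows), with an asterisk where limma's adjusted p was under 0.05. Rhd, Aqp1, Cldn13 and Slc43a1 stay above 0 in every row shown and Kel below 0. The rows without an RBP replicate take their spread from the IgG pair alone, and those without an IgG replicate from the RBP pair alone.

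Partners of these proteins were higher in part. Of 8 listed genes of the Rh complex and membrane anchors, 6 were measured, 4 were higher, 0 were lower (limma, 0 also at an unadjusted p under 0.05) and 2 did not pass, with a median difference of 0.94. Of all genes 23.8%, and of those above background 36.5%, were called higher. Epb42, protein 4.2, which ties the Rh complex to the skeleton, had 7.67 and 7.69 on the RBP arrays, against 6.50 and 6.10 on the IgG arrays, a rise of 1.38 ± 0.18 (limma, adjusted p = 0.00646). Ank1, the ankyrin that anchors the complex, rose by 1.08 ± 0.23 (limma, adjusted p = 0.0207) and the glycophorin Gypc by 0.99 ± 0.21 (adjusted p = 0.0188). Xk, the partner of the Kell protein, had 10.03 and 10.26 on the RBP arrays, against 9.36 and 9.13 on the IgG arrays, and rose by 0.89 ± 0.17 (limma, adjusted p = 0.0142). Kel and Xk thus had differences of opposite sign, and the difference between the pair was not tested. Cd47, which binds SIRP-alpha and sits beside the Rh proteins, gave -0.31 ± 0.17 (limma, adjusted p = 0.205). The band 3 gene Slc4a1 gave 0.36 ± 0.52 (limma, adjusted p = 0.611), with 7.86 and 6.21 on the RBP arrays and 6.92 and 6.43 on the IgG arrays, and was at -0.46 without RBP array 1 and 1.18 without RBP array 2. Epb42 kept its call without each RBP array, while Ank1 and Xk lost theirs without either and Gypc without RBP array 2 (limma, adjusted p = 0.121). With quantile normalization 1 of the 4 calls was kept, that of Epb42, and with the trend on level removed again only that of Epb42 (0.95, limma, adjusted p = 0.0339), where the median of the 6 was 0.29.

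Other carriers of blood groups and other red cell transporters held genes with larger differences than the 9. Of 25 listed carriers 23 were measured, and 7 were higher, 1 was lower and 15 did not pass, with a median difference of 0.38. The 7 are 30.4% of the carriers, of which 21 lay above background. Of all genes above background, 36.5% were called higher and 6.54% lower. Abcb6, a porphyrin transporter that carries the Lan antigen in human, rose by 1.75 ± 0.17 (limma, adjusted p = 0.00558), and the nucleotide exporter Abcc4 by 1.57 ± 0.24 (adjusted p = 0.00801). The urate and porphyrin exporter Abcg2 rose by 1.04 ± 0.15 (limma, adjusted p = 0.00776). The lower one was the hyaluronan receptor Cd44, at -0.77, which is named after its value had been seen. Of 16 other transporters and channels 12 were measured, and 7 were higher and 5 did not pass, with a median of 0.82. The 7 are 58.3% of the 12. Of all genes, 56.4% were called higher at levels of 8 to 9, 57.8% at 9 to 10 and 47.2% above 10. The plasma membrane calcium pump Atp2b1 rose by 1.67 ± 0.19 (limma, adjusted p = 0.00560), the calcium-gated potassium channel Kcnn4 by 1.08 ± 0.17 (adjusted p = 0.00913), the mechanosensitive channel Piezo1 by 1.15 ± 0.33 (adjusted p = 0.0474) and the potassium-chloride cotransporter Slc12a7 by 1.04 ± 0.28 (adjusted p = 0.0391). With the trend on level removed, 2 of the 23 carriers (Abcb6 and Abcg2) and 1 of the 12 transporters (Atp2b1) were higher. In that setting 1 carrier was lower (Cd44, -1.43, limma, adjusted p = 0.0181). Of all genes, 5.94% were then called higher and 5.11% lower. Several genes stand in both lists or among the partners as well.

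Family relatives of the 9 genes gave few calls. The kidney and epithelial Rh proteins Rhbg and Rhcg gave 0.01 ± 0.14 and -0.49 ± 0.19, at levels within 0.5 of the background level. Of 21 claudins other than Cldn13 that were measured, 0 were higher and 2 lower by limma, Cldn18 and Cldn7, both with mean levels below background, so that the sizes of their differences are uncertain. The 21 had a median of -0.41, and at an unadjusted p under 0.05 the counts were 0 and 10, for which no share over all genes was counted. Limma called 23.8% of all genes higher and 6.54% lower. By level, 6.04% were lower at levels under 5, 10.3% at 5 to 6 and 9.27% at 6 to 7. Of 10 other aquaporins 0 were higher and 2 lower by limma, Aqp5 (-0.57 ± 0.16) and Aqp2 (-0.52 ± 0.15), against 1 and 2 at an unadjusted p under 0.05. The largest difference of the aquaporins was that of Aqp9, named after its value had been seen, at 1.24 ± 0.37 (limma, adjusted p = 0.0511), with both RBP arrays above both IgG arrays. None of 6 butyrophilins passed in limma (0 genes, with 1 lower at an unadjusted p under 0.05), with Btnl1 at -0.67 ± 0.30 and Btn1a1 at -0.42 ± 0.15, both below background. None of 3 other ICAM genes did (0 genes, 0 at an unadjusted p under 0.05), with Icam2 at -0.51 ± 0.35 and Icam5 at -0.34 ± 0.20. Of 6 endopeptidases related to Kel, 1 was higher, Ece1, the endothelin-converting enzyme (1.14 ± 0.22, limma, adjusted p = 0.0148). Tspo, the mitochondrial relative of Tspo2, gave 0.35 ± 0.19 (limma, adjusted p = 0.206). Of 5 genes for related amino acid transport, 1 was higher, Slc7a5, the light chain of the LAT1 transporter (0.94 ± 0.15, limma, adjusted p = 0.0100). Of 8 integrin subunits that bind ICAM4 or pair with those that do, 3 were higher, Itgav (1.38 ± 0.17, limma, adjusted p = 0.00585), Itgb1 (0.71 ± 0.15, adjusted p = 0.0188) and Itgal (0.71 ± 0.20, adjusted p = 0.0435), with Icam4 itself at 0.23. These are 37.5% of the 8, all above background, near the 36.5% called higher of all genes above background. Of the claudins 10 of 21 and of the butyrophilins 2 of 6 had a mean above the background level, and all genes at levels of 5 to 6 had a median difference of -0.23.

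**Figure D5:**
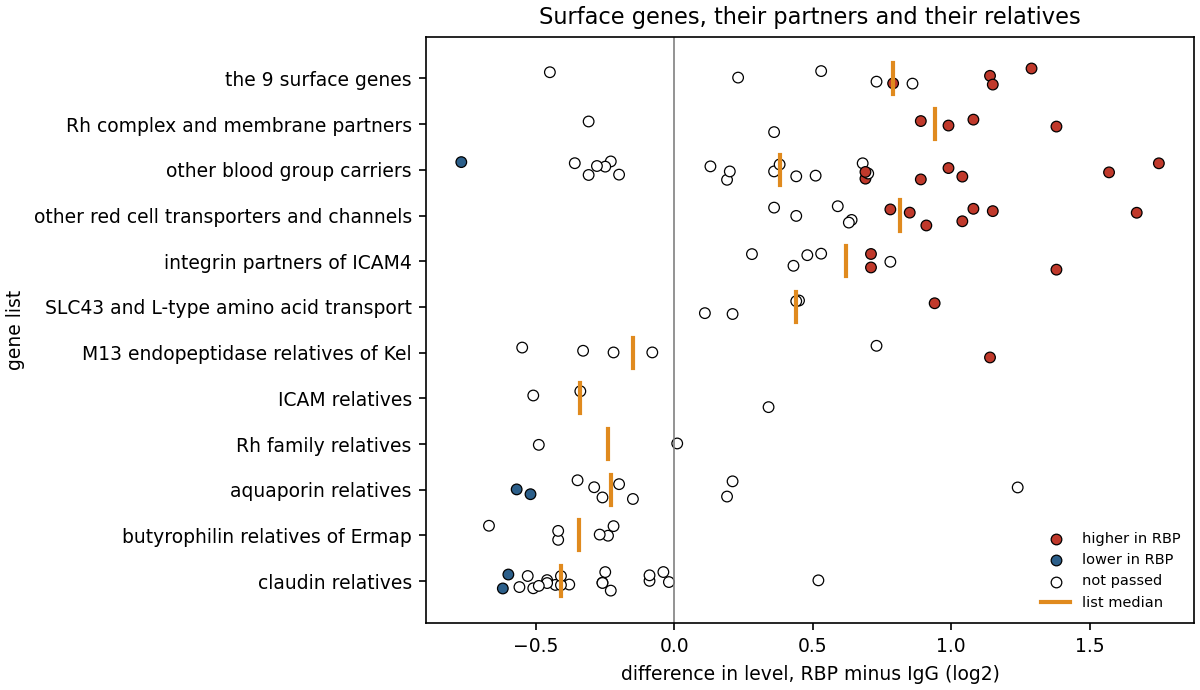
Difference in level (horizontal axis, RBP minus IgG, log2) of the 9 genes, of their partners and of their family relatives (rows), with a point per gene coloured by limma's call and an orange bar for the list median. Medians are 0.79 for the 9 genes, 0.94 for the membrane partners, 0.82 for other transporters and -0.41 for other claudins.

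Genes of the erythroid stage had a median difference of 0.58. Of 9 measured, 4 were higher, Epor (0.87 ± 0.19, limma, adjusted p = 0.0210), Car2 (0.81 ± 0.18, adjusted p = 0.0224), Kit (0.69 ± 0.19, adjusted p = 0.0439) and Tal1 (0.58 ± 0.14, adjusted p = 0.0298). Gata1 (0.22 ± 0.19) and Klf1 (0.52 ± 0.25), the factors that drive many surface genes, did not pass (limma, adjusted p = 0.400 and 0.165), nor did the transferrin receptor Tfrc (0.60 ± 0.18, adjusted p = 0.0503) or the carbonic anhydrase Car1 (0.56 ± 0.21, adjusted p = 0.0929). Of all genes at levels of 9 to 10, where Gata1, Klf1, Tal1 and Epor lay, 57.8% were called higher. The share was 47.2% above 10, where Kit, Car2, Car1 and Tfrc lay, and 4.06% at 5 to 6, where Alas2 lay. None of the 4 calls was kept with quantile normalization (limma, adjusted p from 0.0665 to 0.791), with the trend on level removed (0.210 to 0.797, median of the 9 genes 0.06), without RBP array 1 (0.0621 to 0.205) or without RBP array 2 (0.0674 to 0.255). Markers of other cells were listed for 6 kinds of cell, and of 35 measured 1 was higher (Gp9) and 3 were lower (Cd68, Marco and Elane). The shares were 23.8% and 6.54% of all genes, and 36.5% and 6.54% of those above background. Of the 35, 24 had a mean above the background level. Mpo was among the high ones, with 11.49 and 10.56 on the RBP arrays and 11.40 and 10.53 on the IgG arrays. The macrophage list did not run one way, since Csf1r gave 1.12 ± 0.46 (limma, adjusted p = 0.117) and Adgre1 0.58 ± 0.25 (adjusted p = 0.132). Both genes had both RBP arrays above both IgG arrays, as had 37.4% of all genes. Adgre1 had a mean level below background. Of the granulocyte and mast cell genes, Mpo gave 0.06 ± 0.40 and Ctsg 0.04 ± 0.69 beside -1.44 ± 0.41 for Elane. Cpa3 (-0.94 ± 0.62), Prtn3 (-0.51 ± 0.58), S100a8 (-0.16 ± 0.35) and Mcpt8 (-0.09 ± 0.19) were below 0 and did not pass. The median of this list was -0.16, and -0.65 with the trend on level removed. The summed level of the 7 granulocyte and mast cell markers, as log2, was 12.1 and 11.2 on the RBP arrays and 12.5 and 11.4 on the IgG arrays. All 7 were higher on array 1 than on array 2 in both groups, as were Rhd, Icam4 and Aqp1 among the surface genes. The summed level of the 5 measured megakaryocyte markers was 9.32 and 9.14 on the RBP arrays, and 8.67 and 8.78 on the IgG arrays. Such a sum follows the genes with the highest levels. Of the 5, 1 was higher (Gp9) and 4 did not pass. Pf4 (-0.43 ± 0.27) and Ppbp (-0.28 ± 0.17) had negative differences and lay below background. With the trend on level removed, the median of the 5 was -0.05. Less of a marker's RNA held by an antibody, fewer cells of a kind and less RNA per cell cannot be told apart in such samples. The part of other cells in the differences of the 9 genes was not tested.

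By distance over the log2 levels of the 4 arrays, the genes most like Rhag were Zfp148 (0.08), Mta3 (0.14) and Pskh1 (0.16), and those most like Rhd were Dnajc3 (0.15), Galnt1 (0.20) and Ik (0.20). Dnajc3 had 9.31 and 9.16 on the RBP arrays, against 8.50 and 7.69 on the IgG arrays, the same low IgG array 2 as Rhd. With 4 arrays and 19938 genes, close neighbours are to be found for any gene, and the distances are given as a description.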

How the data were processed

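The deposited values are log2 levels per probe set, for which the submitters' processing notes name RMA and affy. Versions, background step, filters and genome build were not given in the sources used here. Values of 1.83 to 13.87 set the scale as log2. All columns were used.

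Groups came from the sample titles. The platform annotation gave 1 gene symbol to 21789 of 35556 probe sets, several to 1621 and none to 12146. Each of 19938 genes was represented by its probe set with the highest mean; the 9 surface genes have 1 each. The test was limma 3.58.1 in R 4.3.3 (lmFit and plain eBayes), two-sided, adjusted by Benjamini-Hochberg over all genes at 0.05, with 2 residual and 3.76 prior degrees of freedom. The test was tried on data simulated from its own variance model, which does not show how it performs on these arrays. The level trend was a loess fit of span 0.3, taken in equal parts from both groups.

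The members and lists were chosen with earlier results of these data known. Genes named by rule are the 9 members, all measured partners and stage genes, and the 3 genes nearest to Rhag and to Rhd. From each further list, except those of markers of other cells, up to 4 called genes with the largest absolute difference were named. Where none was called, the 2 genes with the largest absolute difference were named. Cd44, Aqp9 and the markers of other cells were named outside this rule, after their values had been seen. Listed genes without a probe set of their own, such as Epb41, were not analysed here. The 15 alternatives cover normalization, centring, level trend, filters at the background level and the median gene, probe set choice, replicate block, leaving out each array, variance moderation and a threshold of 0.1.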

Additional observations from a re-analysis of the deposited data

How the results depend on the processing

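As reported, 4 of the 9 genes were higher and 0 lower by limma, with 4741 and 1304 of all genes. Quantile normalization gave 0 higher and 1 lower (Kel) of the 9, and 2207 and 553 of all genes. Centring on chemosensory genes gave 7 higher of the 9, with 7074 and 317 of all genes, and moved the median of all genes to 0.29, against 0.16 with quantile normalization. Removing the trend on level gave 0 higher and 1 lower of the 9, with 1184 higher and 1019 lower of all genes. Without variance moderation 0 of the 9 passed, and 2 genes were higher and 1 lower in all. A threshold of 0.1 gave 7 of the 9 higher and 2671 of all genes lower, and testing only genes above the median gene left 564 lower, where fewer genes were tested. Leaving out 1 array gave 0 to 6 of the 9 higher and 0 to 1 lower, with 1724 to 5153 of all genes higher and 99 to 2905 lower; the SD over genes of the difference between arrays was 0.258 for the RBP pair and 0.401 for the IgG pair, and without an RBP array the spread comes from the IgG pair alone and without an IgG array from the RBP pair alone. The cause of the other changes was not tested.

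The groups share replicate numbers, but with 2 pairs these were not taken as pairing, since nothing in the labels says what a number stands for. The difference of array 1 from array 2 correlated between the groups at r = 0.255 across genes. With the replicate number as a block, 7 of the 9 were higher and 0 lower, with 5885 and 2199 of all genes. Over 65 of the genes named, 889 refits kept the side of the threshold in 673, lost a call in 164 and gained one in 51. The markers Cpa3, Prtn3, S100a8 and Mcpt8 were not among the 65. The called gene Tal1 turned negative with the level trend removed (-0.07), without passing. The median difference of the 9 ran from 0.19 with the level trend removed to 1.10 with chemosensory centring.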

Other observations

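The absolute difference between the RBP arrays, their gap, had a median of 0.17 over the 9 genes and 0.13 over all genes. The gap between the IgG arrays had a median of 0.60 over the 9 genes, 0.24 over all genes and 0.29 over the genes at levels of 8 to 9. It had a median of 0.36 over the membrane partners, 0.28 over the other transporters and 0.28 over the other blood group carriers, and whether the 9 differ from these was not tested. The IgG gap was larger than the RBP gap for 8 of the 9 genes, all but Rhag, and for 66.6% of all genes. The gap did not run one way. Rhd, Icam4, Aqp1 and Cldn13 were higher on IgG array 1 than on IgG array 2 by over 0.2, with 8.62 and 7.70 for Rhd. Kel, Ermap and Tspo2 were lower on IgG array 1 by over 0.2, with 7.25 and 8.09 for Tspo2. Rhag and Slc43a1 had IgG arrays within 0.1 of each other. Slc43a1, with a difference of 0.79, had an RBP gap of 0.08 and an IgG gap of 0.09.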
